A study of Homo sapiens with 6 samples.

Results

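Expression of 9 kidney development genes was followed across 6 arrays of HEK293 cells: PAX2, PAX8, SIX2, EYA1, SALL1, LHX1, WT1 and GATA3, which encode transcription factors or, for EYA1, their co-activator, and RET, which encodes a receptor tyrosine kinase. They were chosen by name, taking every probe set annotated to the gene or to its Entrez gene ID, which gave 16 probe sets of 9 genes among 45033 probe sets of 23596 genes on the array. HEK293 is an established line from human embryonic kidney, transformed with adenovirus DNA. All cells were transfected for about 40 h and then given conditioned medium for 7 h, and each group had 2 arrays. The groups were SET8 shRNA with Wnt3a medium, control shRNA with Wnt3a medium, and control shRNA with control medium. SET8 adds a single methyl group to lysine 20 of histone H4, and Wnt3a is a secreted ligand of the canonical Wnt pathway. The labels use both siRNA and shRNA for the knockdown reagent, name no clone, and do not say whether the arrays of a group came from separate cultures, so the errors and p-values below measure the spread between these arrays, which may be technical. No group had SET8 shRNA in control medium among those analysed here. SET8 and control shRNA were therefore compared within Wnt3a medium, and whether the Wnt3a response depends on SET8 could not be tested. In bulk RNA, fewer cells expressing a gene and less RNA per cell cannot be told apart.

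The kidney forms from exchange of signals between an epithelial tube, the nephric duct with its outgrowth the ureteric bud, and the surrounding metanephric mesenchyme. PAX2, PAX8, LHX1 and GATA3 act in the nephric duct, where RET at the bud tip receives the mesenchymal ligand GDNF and drives branching. EYA1, SALL1, SIX2 and WT1 act in the mesenchyme, where SIX2 keeps nephron progenitors undifferentiated and canonical Wnt signals from the bud are required both for their upkeep and for their conversion to epithelium.

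Because Wnt3a acts through TCF/LEF factors and GATA3 binds GATA sites, the 250 bases before each annotated start of these genes were searched for CTTTGA, the core motif of TCF/LEF factors (TCAAAG on the other strand), and for AGATAA, the core motif of GATA factors (TTATCT on the other strand). The motifs do not overlap each other. RefSeq windows on build GRCh38.p14 were at hand for 6 of the 9 genes, 16 windows in all, and each motif was scanned on both strands. The TCF/LEF core was in 2 of the 16 windows, against 11.2% of all 35116 windows, and the GATA core in 1 of 16, or 6.25%, against 9.17% of all. The 3 windows with a match follow, 5′ to 3′ on the gene's strand, because they are the only ones of these genes that hold a searched motif, which is in capitals. They are chr10:8053391-8053640 (plus strand) for GATA3, chr2:45009453-45009702 (minus strand) for SIX2 and chr11:32430814-32431063 (minus strand) for WT1.
GATA3: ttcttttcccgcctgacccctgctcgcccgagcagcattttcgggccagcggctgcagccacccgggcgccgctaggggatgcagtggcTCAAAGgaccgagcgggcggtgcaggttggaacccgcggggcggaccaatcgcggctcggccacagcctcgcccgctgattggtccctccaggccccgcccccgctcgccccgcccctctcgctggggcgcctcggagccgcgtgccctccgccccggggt
SIX2: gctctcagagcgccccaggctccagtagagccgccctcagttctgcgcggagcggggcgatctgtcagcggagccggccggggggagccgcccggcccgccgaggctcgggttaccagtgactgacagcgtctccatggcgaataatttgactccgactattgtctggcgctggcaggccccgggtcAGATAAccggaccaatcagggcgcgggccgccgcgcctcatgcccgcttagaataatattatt
WT1: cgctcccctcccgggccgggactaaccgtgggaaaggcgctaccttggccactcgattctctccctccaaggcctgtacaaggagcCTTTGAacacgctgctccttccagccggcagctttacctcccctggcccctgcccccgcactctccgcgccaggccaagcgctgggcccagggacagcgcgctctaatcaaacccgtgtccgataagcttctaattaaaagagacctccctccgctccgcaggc
The first base of the motif lies 161 bases before the start for GATA3, 63 for SIX2 and 164 for WT1. GATA3 and WT1 have further annotated starts whose windows hold neither motif, and the windows of PAX2, PAX8 and RET hold neither. A match is a run of letters, and no binding was measured.

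Values are log2 intensities, normalised and summarised by the authors, and a difference is in log2 units. A probe set was tested where it lay above the median of its array in at least 2 of the 6 arrays; array medians were 7.63 to 7.79, and the random control set read 4.66 to 4.84. Replicate arrays correlated at 0.978 with SET8 shRNA, 0.955 with control shRNA in Wnt3a medium and 0.964 in control medium, across the tested probe sets only. KMT5A, the gene for SET8, read 8.97 and 9.65 with SET8 shRNA on its brighter probe set, against 11.20 and 10.53 with control shRNA in Wnt3a medium. The Wnt feedback gene NKD1 read 11.61 and 11.63 in Wnt3a medium with control shRNA, against 8.97 and 8.70 in control medium.

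Of the 16 probe sets, 9 were tested, covering PAX2, SIX2, SALL1, LHX1, WT1 and GATA3. The probe sets of PAX8, EYA1 and RET were too dim for the filter, and their differences are given with no call. PAX2 passed through 2 arrays only, both in Wnt3a medium, so the filter itself favoured a higher value there than in control medium. LHX1 BC101674 passed through the 4 arrays of SET8 shRNA and of control medium, so the filter likewise favoured its difference from control shRNA in Wnt3a medium. In none of the 3 comparisons did any of the 9 tested probe sets reach an adjusted p under 0.05 (limma, Benjamini-Hochberg over 23808 probe sets). That compares with 0% of all tested probe sets for Wnt3a against control medium, 0% for SET8 against control shRNA in Wnt3a medium, and 0.0504%, or 12 probe sets, for the double treatment, SET8 shRNA in Wnt3a medium, against control shRNA in control medium. The check genes also missed it, with limma adjusted p of 0.24 for KMT5A (SET8 shRNA, brighter probe set) and 0.091 for NKD1 (Wnt3a medium). So did AXIN2, a further Wnt check, which was 1.56 higher with Wnt3a medium on its brighter probe set. Missing the threshold therefore does not show that a gene was unchanged. At an unadjusted p under 0.05, there was 1 of 9 for Wnt3a medium (2.14% of all tested), 2 for SET8 shRNA (7.16%) and 2 for both treatments together (10.6%). The first is LHX1 BC101674, which is also 1 of the 2 for SET8 shRNA, and the filter had a part in it. The other for SET8 shRNA is LHX1 NM_005568. The 2 for both treatments are the GATA3 probe sets, which lay above the median in all 6 arrays. Each of these pairs belongs to a single gene, so the counts support nothing about the 9 genes as a set. The differences below are therefore descriptions of 2 arrays against 2, with the values of each array.

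**Figure D1:**
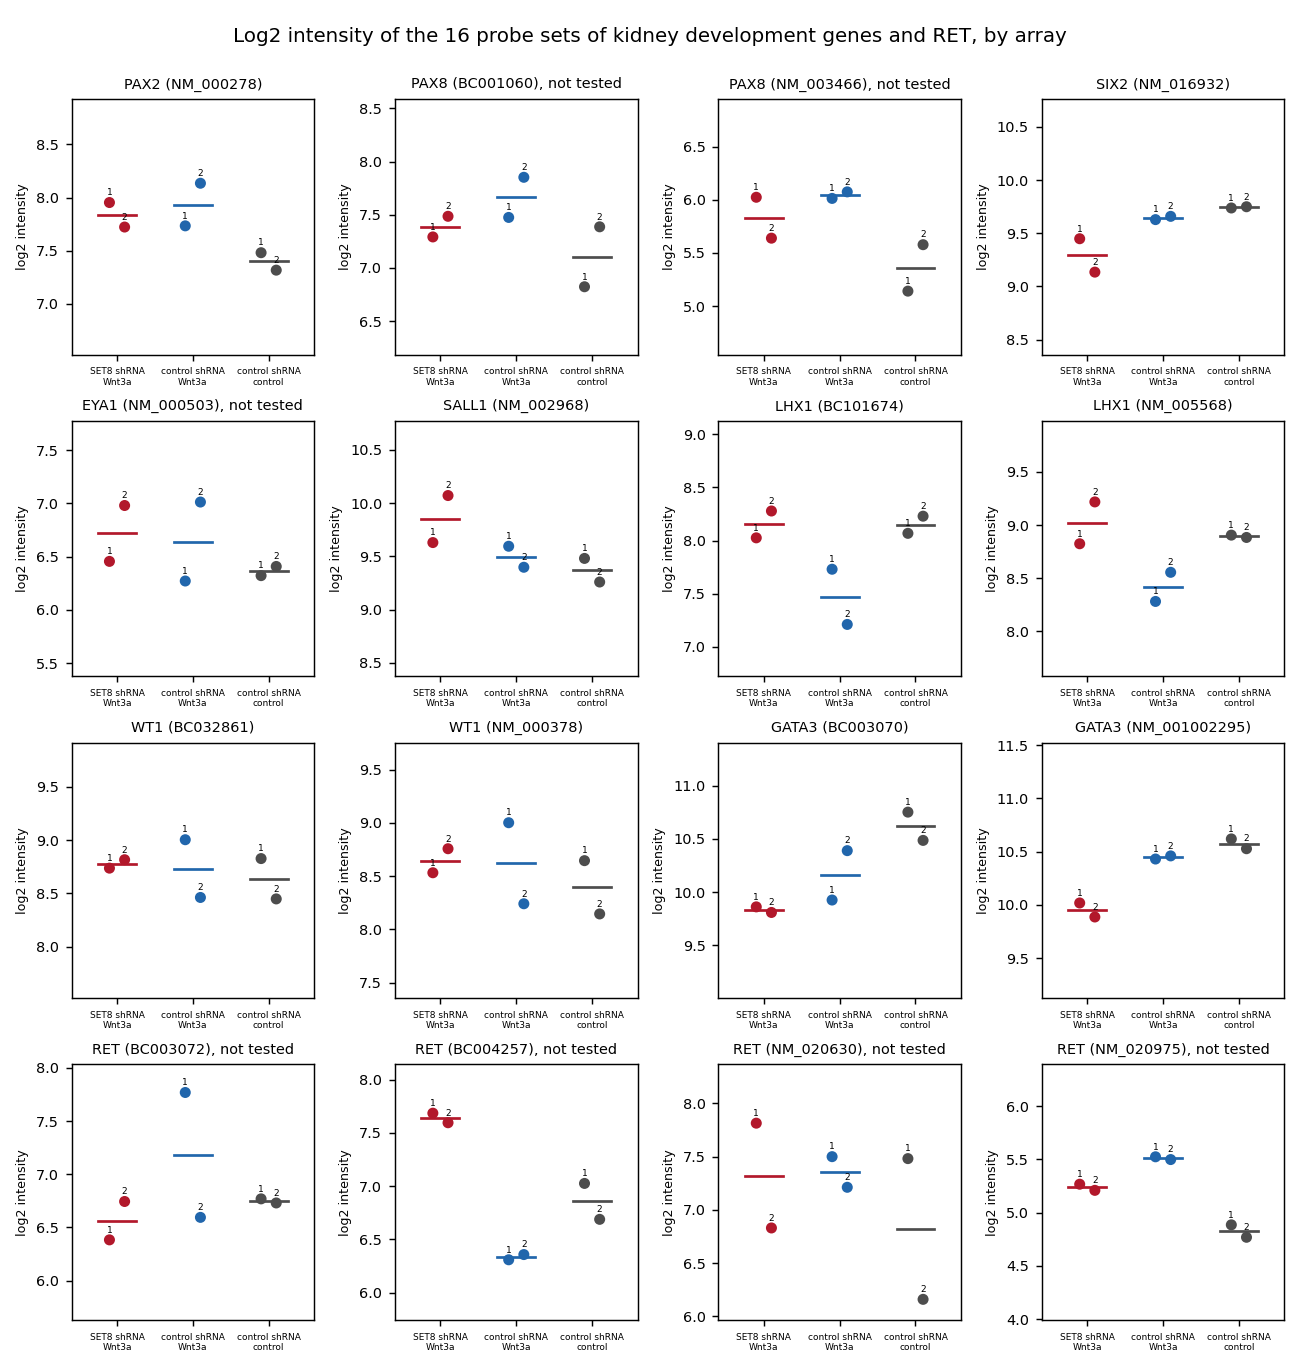
Log2 intensity of each of the 16 probe sets on each array, with a dot per array, its replicate number beside it and a bar at the group mean; every panel spans the same height of log2 units. The lowest GATA3 and SIX2 values are in the SET8 shRNA arrays, LHX1 is lowest with control shRNA in Wnt3a medium, and the 4 RET probe sets have different patterns.

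PAX2, a paired-domain factor needed for the nephric duct and for the mesenchyme to form nephrons, had its higher values in both groups given Wnt3a medium. Its probe set (NM_000278, chr10:102495321-102579688, on build hg18 as are all probe set positions here) read 7.95 and 7.72 with SET8 shRNA in Wnt3a medium, 7.73 and 8.13 with control shRNA in Wnt3a medium, and 7.48 and 7.32 in control medium. The 4 arrays in Wnt3a medium all lay above the 2 in control medium, and the 2 shRNA groups in Wnt3a medium overlapped. The difference between Wnt3a and control medium was 0.53 (SE 0.25, 95% interval -0.05 to 1.12), with a limma adjusted p of 1. SET8 shRNA differed from control shRNA by -0.10 (interval -0.69 to 0.49), and SET8 shRNA with Wnt3a medium from control shRNA with control medium by 0.44 (interval -0.15 to 1.03). PAX2 passed the filter only through arrays in Wnt3a medium, which favoured both differences from control medium.

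PAX8, the close relative of PAX2 that acts with it in the nephric duct, has a pair of probe sets with nearly the same span on chromosome 2. BC001060 (chr2:113691410-113752959) read 7.29 and 7.49 with SET8 shRNA, 7.47 and 7.85 with control shRNA in Wnt3a medium, and 6.82 and 7.39 in control medium. NM_003466 (chr2:113691409-113752968) read 6.02 and 5.64 with SET8 shRNA, 6.01 and 6.07 with control shRNA in Wnt3a medium, and 5.14 and 5.58 in control medium. On both, the control shRNA arrays in Wnt3a medium lay above those in control medium, by 0.56 and 0.68 on average, with a gap between the nearest arrays of only 0.09 for BC001060. SET8 and control shRNA overlapped on both in Wnt3a medium. Neither probe set was tested. The antisense gene PAX8-AS1 lies within PAX8 over 30734 bases, and whether the array tells the strands apart is not given in the sources used here.

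LHX1, a LIM-homeodomain factor needed to extend the nephric duct and later to pattern the nephron, read lowest with control shRNA in Wnt3a medium on both its probe sets. NM_005568 (chr17:32368611-32374607) read 8.82 and 9.22 with SET8 shRNA, 8.28 and 8.56 with control shRNA in Wnt3a medium, and 8.90 and 8.88 in control medium. BC101674 (chr17:32369515-32374570) read 8.03 and 8.28 with SET8 shRNA, 7.73 and 7.21 with control shRNA in Wnt3a medium, and 8.07 and 8.23 in control medium. The pair of control shRNA arrays in Wnt3a medium lay below all 4 other arrays on each probe set. SET8 shRNA was higher than control shRNA by 0.60 on NM_005568 (SE 0.25, interval 0.02 to 1.19, limma adjusted p = 0.68) and by 0.68 on BC101674 (interval 0.05 to 1.31, adjusted p = 0.65), which passed the filter only through the groups where it was higher. Wnt3a against control medium gave -0.48 (interval -1.06 to 0.11) and -0.68 (interval -1.30 to -0.05), each with a limma adjusted p of 1. The arrays of control shRNA in Wnt3a medium enter both of these comparisons with opposite sign, so a value low in them moves both. SET8 shRNA with Wnt3a medium and control shRNA with control medium overlapped on both probe sets.

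GATA3, a zinc-finger factor needed for the nephric duct and for RET expression in it in the mouse, read lowest in the SET8 shRNA arrays and highest in the control medium arrays on both its probe sets. NM_001002295 (chr10:8136672-8157170) read 10.02 and 9.89 with SET8 shRNA, 10.43 and 10.46 with control shRNA in Wnt3a medium, and 10.62 and 10.53 in control medium. BC003070 (chr10:8136778-8156484) read 9.86 and 9.81 with SET8 shRNA, 9.93 and 10.39 with control shRNA in Wnt3a medium, and 10.75 and 10.49 in control medium. No 2 groups overlapped on either probe set, although the gaps between neighbouring groups were as small as 0.06. SET8 shRNA with Wnt3a medium differed from control shRNA with control medium by -0.62 on NM_001002295 (SE 0.22, interval -1.14 to -0.11, adjusted p = 0.37 by limma) and by -0.78 on BC003070 (SE 0.26, interval -1.39 to -0.18, adjusted p = 0.33). Within Wnt3a medium, SET8 against control shRNA gave -0.49 (interval -1.01 to 0.02) and -0.32, with a limma adjusted p of 0.72 for the first. With control shRNA, Wnt3a against control medium gave -0.13 on NM_001002295 and -0.46 on BC003070. GATA3-AS1 lies 1219 bases from GATA3 without overlapping it, and its values, between 5.14 and 6.43, overlapped in all 3 groups.

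RET, the GDNF receptor, was represented by 4 probe sets that start together at chr10:42892532 and did not give the same picture. BC004257 (end 42942275) read 7.69 and 7.60 with SET8 shRNA, 6.31 and 6.36 with control shRNA in Wnt3a medium, and 7.03 and 6.69 in control medium. This was the largest SET8 difference of the 16 probe sets, 1.31 or 2.48-fold, with 1.24 between the nearest arrays. The control shRNA arrays in Wnt3a medium were also below those in control medium, by -0.52 on average. As with LHX1, they enter both comparisons, so a value low in them moves both. SET8 shRNA with Wnt3a medium differed from control shRNA with control medium by 0.78. BC004257 failed the filter. Fitted with no filter, its SET8 difference had a limma adjusted p of 0.53. BC003072, with the same end, read 6.38 and 6.74 with SET8 shRNA, 7.77 and 6.59 with control shRNA in Wnt3a medium, and 6.77 and 6.73 in control medium. There the SET8 difference was -0.62, and -0.031 or -1.20 without replicate 1 or 2 of control shRNA in Wnt3a medium, which were 1.17 apart; all groups overlapped.

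The transcripts NM_020630 and NM_020975 encode the short and long RET isoforms, which differ in their C-terminal tail. Probe sequences were not used here, so which isoforms each probe set reads is not known and the values are not isoform levels. NM_020630 (end 42942958) read 7.81 and 6.83 with SET8 shRNA, 7.50 and 7.21 with control shRNA in Wnt3a medium, and 7.48 and 6.16 in control medium. Its groups overlapped in every comparison, with replicates up to 1.32 apart. NM_020975 (end 42944955) read 5.27 and 5.21 with SET8 shRNA, 5.53 and 5.50 with control shRNA in Wnt3a medium, and 4.89 and 4.77 in control medium. The random control set read 4.75 and 4.84 on the control medium arrays, so NM_020975 did not stand above it there, and no difference from control medium is given for it. Across the 4 probe sets, the SET8 shRNA arrays lay above those of control shRNA in Wnt3a medium on BC004257, lay below them on the dim NM_020975, and overlapped them on the other two. RET as a gene therefore has no single direction in these arrays.

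SIX2, the homeodomain factor that maintains nephron progenitors, read lowest with SET8 shRNA. Its probe set (NM_016932, chr2:45085846-45090026) read 9.45 and 9.14 with SET8 shRNA, 9.63 and 9.66 with control shRNA in Wnt3a medium, and 9.74 and 9.75 in control medium. The groups did not overlap, but the SET8 shRNA replicates were farther from each other than the nearer of them was from control shRNA. SET8 against control shRNA gave -0.35 (SE 0.23, interval -0.89 to 0.19, adjusted p = 0.88 by limma). The double treatment, SET8 shRNA in Wnt3a medium, against control shRNA in control medium gave -0.45, with an adjusted p of 0.59 in limma. The Wnt3a difference with control shRNA was -0.10.

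SALL1, a zinc-finger repressor needed for the bud to invade the mesenchyme, had its highest values with SET8 shRNA. NM_002968 (chr16:49727829-49742653) read 9.63 and 10.07 with SET8 shRNA, 9.59 and 9.40 with control shRNA in Wnt3a medium, and 9.48 and 9.26 in control medium. The SET8 shRNA arrays lay above the others, but the nearest pair was 0.03 apart. SET8 against control shRNA gave 0.35 (SE 0.26, interval -0.25 to 0.96, adjusted p = 0.90 by limma), and against control shRNA in control medium 0.48, with an adjusted p of 0.61 in limma. EYA1, a phosphatase and co-activator that works with SIX2 and its relatives upstream of GDNF, was untested. Its probe set (NM_000503, chr8:72272221-72437021) read 6.46 and 6.98 with SET8 shRNA, 6.27 and 7.01 with control shRNA in Wnt3a medium, and 6.32 and 6.41 in control medium. EYA1 overlapped between SET8 and control shRNA and between Wnt3a and control medium, and the SET8 shRNA arrays lay 0.05 above the nearest array of control shRNA in control medium.

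WT1, the zinc-finger factor of the mesenchyme and later of podocytes, showed no separation of groups. BC032861 (chr11:32365900-32408935) read 8.74 and 8.82 with SET8 shRNA, 9.004 and 8.46 with control shRNA in Wnt3a medium, and 8.83 and 8.45 in control medium. NM_000378 (chr11:32365900-32413663) read 8.53 and 8.76 with SET8 shRNA, 9.003 and 8.24 with control shRNA in Wnt3a medium, and 8.65 and 8.15 in control medium. Both probe sets overlapped in every comparison. The SET8 difference was 0.04 on BC032861 (interval -0.61 to 0.69) and 0.02 on NM_000378. In both groups with control shRNA, replicate 1 read higher than replicate 2 on both probe sets. The neighbouring gene WT1-AS, 2387 bases or more from WT1, was too dim to be tested. Its probe set NM_015855 read 7.81 and 7.22 with SET8 shRNA, 6.97 and 7.12 with control shRNA in Wnt3a medium, and 6.99 and 6.84 in control medium. BC096708, also WT1-AS and in part no brighter than the random control set, read 5.92 and 5.48 with SET8 shRNA, 5.03 and 4.42 with control shRNA in Wnt3a medium, and 5.38 and 4.70 in control medium. On both, the SET8 shRNA arrays lay above all others, unlike those of WT1 itself. The nearest other array was only 0.10 away on NM_015855, in Wnt3a medium, and 0.09 away on BC096708, in control medium. Of all probe sets, 33.1% did not overlap between SET8 and control shRNA in Wnt3a medium, and 38.2% between SET8 shRNA and control medium.

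**Figure D2:**
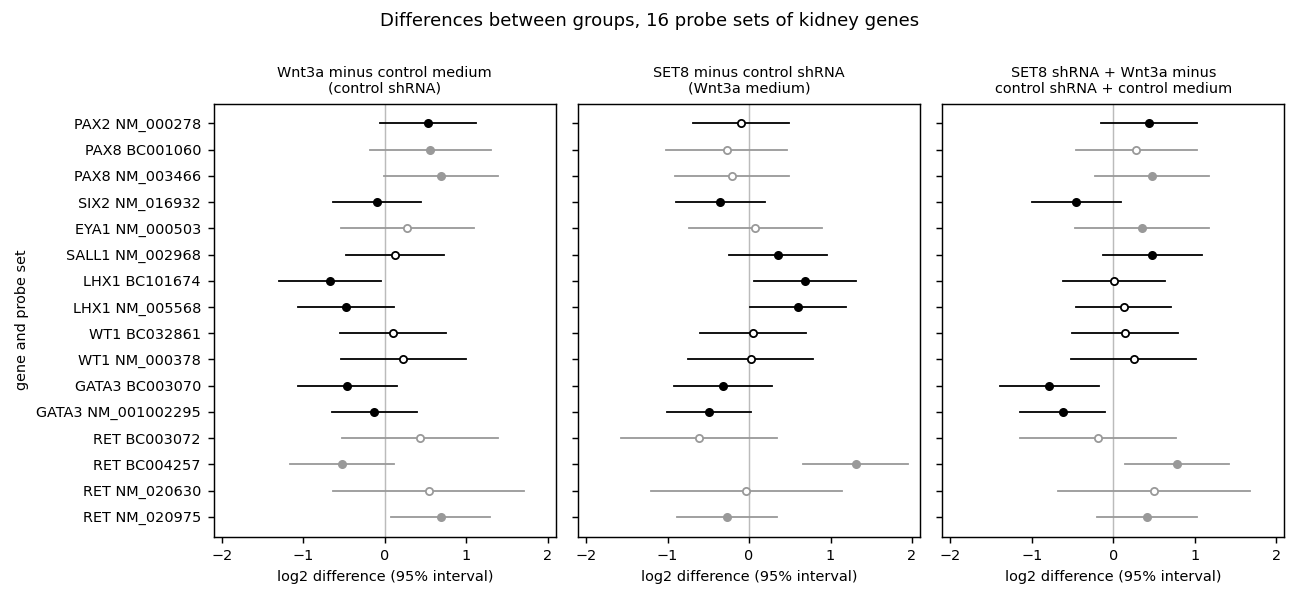
Log2 difference of each probe set in the 3 comparisons, with 95% limma intervals; filled points mark groups whose arrays do not overlap, open points groups that overlap, and grey the 7 untested probe sets, whose intervals come from the fit with no filter. GATA3 lies to the left of 0 in all 3 panels, LHX1 changes side between the first and the second, and RET BC004257 is farthest from 0 in the second.

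Over all 16 probe sets, the arrays of Wnt3a and control medium did not overlap for 10, of which 4 were higher and 6 lower with Wnt3a; the same held for 26.6% of all probe sets on the array, 14.8% higher and 11.9% lower. For SET8 against control shRNA, 8 did not overlap, 4 higher and 4 lower, against 33.1% of all, 16.4% higher and 16.7% lower. For the double treatment against control shRNA in control medium, 9 did not overlap, 6 higher and 3 lower, against 38.2% of all, 20.5% higher and 17.7% lower. Such separations are therefore common on these arrays, the 16 probe sets belong to only 9 genes, and 4, 2 and 2 of these separations, in the same order of comparisons, had a gap under 0.1 between the nearest arrays. RET NM_020975 is among the higher ones for Wnt3a medium and for the double treatment. The median difference of the 16 was 0.18 for Wnt3a medium (all 45033 probe sets 0.018), -0.065 for SET8 shRNA (all 0.0043) and 0.27 for both together (all 0.013). By direction alone, 10 of the 16 were higher with Wnt3a medium (52.5% of all), 7 with SET8 shRNA (50.5%) and 12 with both together (51.3%). Over only the 9 that passed the filter, the medians were -0.10, 0.02 and 0.13 in the same order, so their sign for Wnt3a medium and for SET8 shRNA turns with the choice of probe sets.

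The genes whose pattern over the 6 arrays was most like each tested gene were found by the root mean square difference of centred log2 values, among probe sets whose range over the arrays was at least 0.8 times that gene's. For PAX2 these were ZNF256 (0.056) and EYA2 (0.064), of 7341 candidates. For LHX1 they were RAI2 (0.082) and TAFAZZIN (0.089), and for GATA3 PIGV (0.043) and HCG18 (0.051). SIX2 was closest to SFXN4 and ZNF106 (0.041), SALL1 to YEATS4 (0.035) and AMPH (0.037), and WT1 to SLC31A1 (0.025) and FAF1 (0.044). With 6 arrays and so many candidates, close matches are found for every gene, and these are descriptions only. EYA2, a relative of EYA1, is the only one of these neighbours among the kidney lists below; it read 0.48 higher with Wnt3a than with control medium (limma adjusted p of 1).

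Other genes of kidney development were set beside these in 4 lists, none of which had a member past an adjusted p of 0.05 in any comparison (limma). Of the regulators of nephron progenitors and mesenchyme, 21 of 27 were tested, with median differences of -0.06 for Wnt3a medium, -0.13 for SET8 shRNA and -0.10 for both. With SET8 shRNA, 7 were higher and 14 lower, where 51.1% of all tested probe sets were higher. With Wnt3a medium and with both treatments, 10 were higher and 11 lower each, against 53% and 52% of all higher. For SET8 shRNA, HOXA11, a homeobox gene of the mesenchyme, gave 0.66 (limma adjusted p = 0.69) and FOXC1, a forkhead gene, -0.43 (adjusted p = 0.82). Of the regulators of the ureteric bud and nephric duct, 20 of 29 were tested, with medians of 0.13 for Wnt3a medium, -0.02 for SET8 shRNA and 0.19 for both. At an unadjusted p under 0.05, the mesenchyme list had 1 higher gene, with SET8 shRNA, and the duct list had 1 higher for Wnt3a medium, 1 higher and 1 lower for SET8 shRNA, and 1 higher and 1 lower for both. The higher duct gene for SET8 shRNA was GRIP1, which lay below the median on both arrays of control shRNA in Wnt3a medium. The filter itself thus favoured its difference. Over all tested probe sets, 1.61% were higher and 0.529% lower for Wnt3a medium at that p, 3.76% and 3.41% for SET8 shRNA, and 6.48% and 4.07% for both. WNT11, a Wnt ligand of the bud tip that lies downstream of RET in the mouse, read 10.42 on average with Wnt3a medium against 8.99 in control medium, a difference of 1.43 (SE 0.24, limma adjusted p = 0.93). With SET8 shRNA and Wnt3a medium its difference from control shRNA in control medium was 1.42, with an adjusted p of 0.092 in limma. FGF9, a growth factor that maintains nephron progenitors, differed by -0.83 between SET8 and control shRNA (adjusted p = 0.39, limma).

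Of the genes of the RET receptor complex and its signalling, 28 of 40 were tested, with medians of 0.12 for Wnt3a medium, 0.15 for SET8 shRNA and 0.36 for both. By direction alone, 20 of the 28 were higher with Wnt3a medium (53% of all tested probe sets), 17 with SET8 shRNA (51.1%) and 20 with both (52%). At an unadjusted p under 0.05, 3 were higher with Wnt3a medium, 1 higher and 3 lower with SET8 shRNA, and 4 higher and 2 lower with both. GDF15 and DUSP6 of this list lay above the array median in only 3 arrays each, all with control shRNA. The filter itself therefore favoured lower values with SET8 shRNA for them, and their part in the lower counts supports nothing about the genes. ETV4, an ETS factor induced by RET signalling in the bud tip, was higher by 1.32 with Wnt3a medium (SE 0.25, limma adjusted p of 1) and by 1.09 with both treatments (adjusted p = 0.15). NRTN, a relative of GDNF that also signals through RET, was higher by 0.73 with Wnt3a medium (limma adjusted p of 1). GRB10, an adaptor that binds RET, gave -0.84 with SET8 shRNA (limma adjusted p = 0.38), and NKX2-1, a transcription factor of thyroid and lung that acts on the RET promoter, gave 0.93 (adjusted p = 0.40). Of the genes of the differentiated nephron and collecting duct, only 12 of 39 were bright enough to be tested, with 1 higher for Wnt3a medium, 1 higher for SET8 shRNA and 2 higher for both at an unadjusted p under 0.05. Among them the sodium channel subunit SCNN1A gave 1.47 with SET8 shRNA (limma adjusted p = 0.40) and 1.77 with both treatments (adjusted p = 0.16), and the water channel AQP3 gave 1.01 with both (adjusted p = 0.14). SCNN1A lay above the array median only in the 2 SET8 shRNA arrays, so it was tested only because it was high there.

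**Figure D3:**
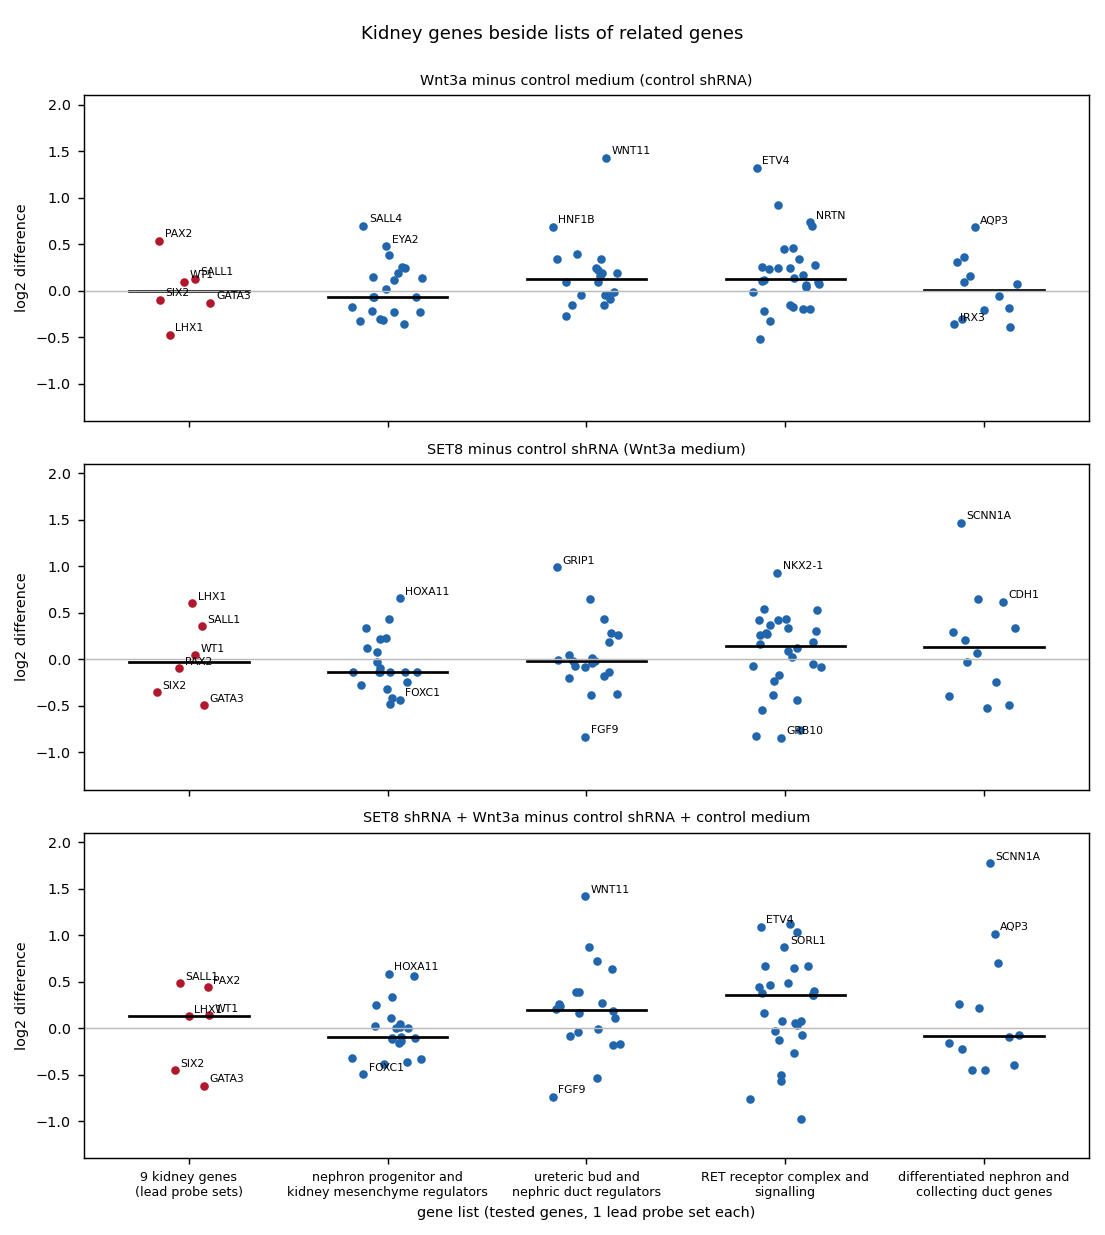
Log2 difference of each tested gene, with a lead probe set per gene, for the kidney genes (red) and the 4 related lists (blue); the bar is the median of the list. The medians of the lists lie between -0.13 and 0.36, and WNT11, ETV4 and SCNN1A lie farthest above.

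Markers of other cell types were read on the same arrays. The summed intensity of 14 neural and chromaffin markers was 10456 to 10728 with SET8 shRNA, 15269 to 16215 with control shRNA in Wnt3a medium, and 13535 to 15107 in control medium. Of these, SYP, the synaptic vesicle protein synaptophysin, lay above the median on all 6 arrays and read 11.64 and 11.41 with SET8 shRNA, 12.76 and 12.94 with control shRNA in Wnt3a medium, and 12.92 and 12.56 in control medium. NEFL, a neurofilament gene also above the median on all 6 arrays, went the other way. It read 11.94 and 12.23 with SET8 shRNA, against 11.62 and 11.27 with control shRNA in Wnt3a medium. Between these 2 groups, 3 of the 14 markers were higher and 6 lower with SET8 shRNA without overlap. Over all probe sets, 33.1% did not overlap in either direction. The 8 fibroblast markers summed to 4627 to 5008 with SET8 shRNA, 6260 to 7139 with control shRNA in Wnt3a medium and 6006 to 6291 in control medium. Only 2 of the 8 were bright enough to be tested. COL1A1, the brightest, read 12.18 and 11.99 with SET8 shRNA, against 12.70 and 12.48 with control shRNA in Wnt3a medium. Between these groups, 2 of the 8 were lower and 0 higher without overlap, against 16.7% of all probe sets lower. Between Wnt3a and control medium, 5 were lower and 1 higher with Wnt3a, against 26.6% of all probe sets in either direction. The 7 blood markers summed to 1392 to 1413 with SET8 shRNA, 2552 to 2842 with control shRNA in Wnt3a medium and 2377 to 2941 in control medium. Of these 7, 4 were lower and 0 higher with SET8 than with control shRNA in Wnt3a medium without overlap, against 16.7% of all probe sets lower. They include the alpha-globin genes HBA1 and HBA2, and PTPRC, which was too dim to be tested. The 8 epithelial and HEK293 markers, all tested, had sums that overlapped between SET8 shRNA, 79447 to 80449, and control shRNA in Wnt3a medium, 75310 to 86741. Gene by gene, 3 of these 8 were higher and 2 lower with SET8 shRNA without overlap, against 34.1% of all tested probe sets in either direction. The summed levels thus stood apart in the SET8 shRNA arrays for 3 of the 4 marker sets. These are sums of linear intensity, in which the brightest genes weigh most, so they do not show a shift of each whole set. The part of these differences in the kidney gene values was not tested.

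**Figure D4:**
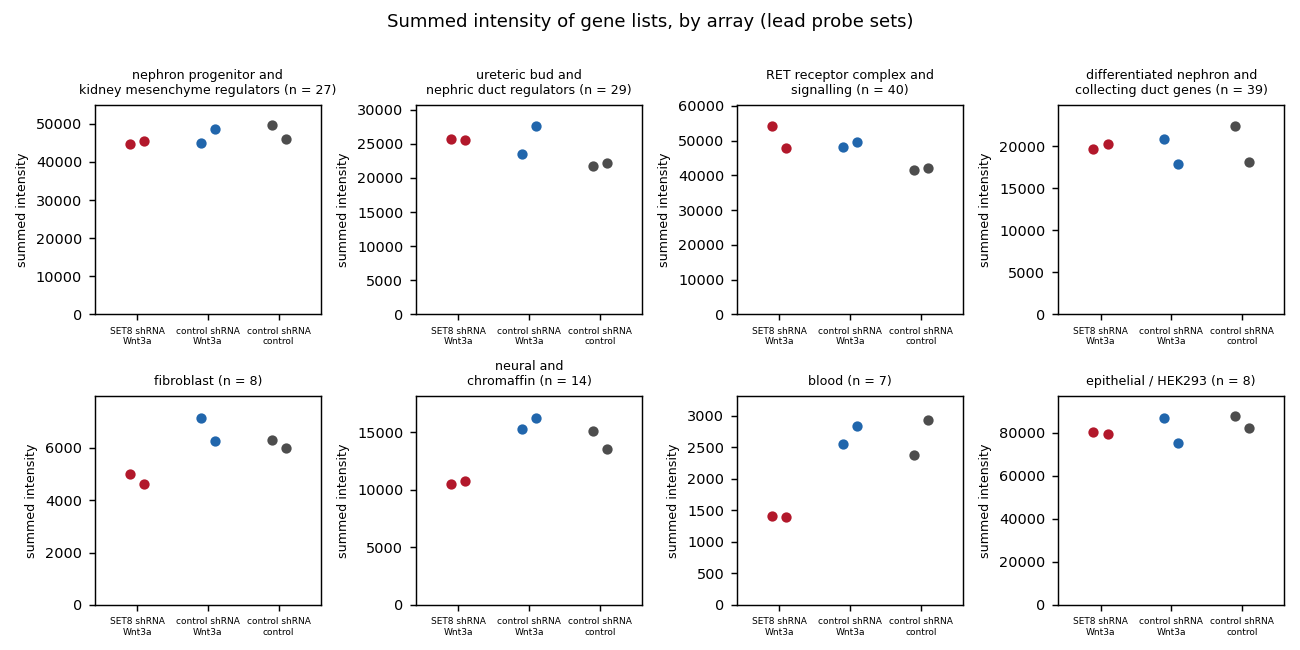
Summed linear intensity of the lead probe sets of each gene list, with a dot per array and axes that start at 0. The neural and chromaffin, fibroblast and blood sums are lowest in the SET8 shRNA arrays, while the SET8 and control shRNA arrays in Wnt3a medium overlap for the 4 kidney lists and for the epithelial and HEK293 markers.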

How the data were processed

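Total RNA of 6 HEK293 samples was measured on NimbleGen one-colour (Cy3) arrays. The authors deposited 1 linear intensity per probe set and array, normalised and summarised with RMA per the submitters' processing notes; its version and settings are not given in the sources used here. RMA is commonly run with quantile normalisation, under which a shift of most genes would not be seen. The series value table holds the same intensities (largest difference 0). Of 45033 probe sets, 45031 have 3 probes, so the number of probes and of arrays limits the precision. Positions are on hg18 per the file headers; promoter sequences are from RefSeq on GRCh38.p14.

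Gene symbols were updated through Entrez IDs with a RefSeq table (38916 probe sets, 86.4%, matched). The deposited values were converted to log2 without an offset. Probe sets above their array's median in at least 2 of 6 arrays (23808) were fitted with limma 3.58.1 in R 4.3.3 (lmFit, eBayes) as 3 groups of 2 arrays sharing 1 spread, with 3 residual degrees of freedom and 4.32 prior ones; the fit was tested on simulated data. Benjamini-Hochberg adjustment ran over all tested probe sets with a threshold of 0.05. Intervals are moderated 95% intervals. Where several probe sets of a gene exist, all are given for the 9 genes, and lists use the probe set with the highest mean over the 6 arrays.

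All 9 genes are named in every comparison; of each list, any called gene or, failing that, the 2 genes lowest in p were eligible to be named. The members, lists and rules were chosen with earlier results of these data known. Antisense neighbours were added after the files were seen. Alternatives were other filters, an offset, quantile normalisation, median centring, an intensity trend, only the arrays compared, a replicate block and leaving out each array.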

Additional observations from a re-analysis of the deposited data

How the results depend on the processing

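No probe set of the 9 kidney genes passed the threshold in any of the 3 comparisons under any alternative run, and adjusted p-values of the tested ones lay between 0.126 and 1 (limma). With replicate number as a block the number past the threshold was 0 in each comparison. Nothing in the labels says that the numbers pair the samples. Replicate differences correlated at 0.75 between the 2 control shRNA groups, which deviate together, and at -0.29 between SET8 shRNA and each of them; the errors given for Wnt3a medium do not take that shared deviation into account. A crossed pairing, added after seeing the data, gave 3, 182 and 792 calls over all probe sets for Wnt3a medium, SET8 shRNA and both together, and 4 list genes for both together (WNT11, GDF15, ETV4, AQP3). The crossing was chosen from the same replicate differences that such a block removes, so these calls support nothing about the genes. GDF15 moreover passed the filter only through arrays with control shRNA.

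The median was 0.18 for Wnt3a medium with no filter, over all 16 probe sets. With the 60th percentile as filter, which tests fewer, it was -0.14 for SET8 shRNA and -0.16 for both treatments. Leaving out each array in turn gave medians of -0.15 to -0.08 for Wnt3a medium, -0.091 to 0.32 for SET8 shRNA (0.32 without control shRNA with Wnt3a replicate 1) and -0.07 to 0.18 for both. For both treatments, 2 list genes passed when only the 4 arrays compared were fitted (WNT11, adjusted p = 0.048, and SCNN1A, adjusted p = 0.035, limma). SCNN1A was in that fit only because it was high in the SET8 shRNA arrays, so its pass supports nothing about the gene.

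Of 423 alternative values of the tested genes, 407 kept their direction and 16 reversed. LHX1 BC101674 reversed for both treatments with quantile normalisation (-0.076) and median centring (-0.086). All other reversals came from leaving out an array. The differences concerned spanned, for Wnt3a medium, -0.18 to 0.37 (WT1 BC032861) and -0.15 to 0.61 (WT1 NM_000378), without replicate 1 and 2 of control shRNA in Wnt3a medium. For SET8 shRNA they spanned -0.30 to 0.10 (PAX2), -0.23 to 0.32 (WT1 BC032861) and -0.36 to 0.40 (WT1 NM_000378), each without replicates of that same group. For both treatments they spanned -0.12 to 0.13 (LHX1 BC101674) and -0.070 to 0.32 (LHX1 NM_005568) without replicates of SET8 shRNA, and -0.050 to 0.33 (WT1 BC032861) and -8e-04 to 0.50 (WT1 NM_000378) without replicates of control medium. Within these ranges, the sign also turned when an array of the other group was left out. For Wnt3a medium this was replicate 2 of control medium, on both WT1 probe sets. For SET8 shRNA it was replicate 2 of SET8 shRNA, on PAX2 and WT1 NM_000378. For both treatments it was replicate 1 of control medium, on LHX1 BC101674. The cause was not tested. The SET8 difference kept its sign but ranged from -0.55 to -0.091 for GATA3 BC003070 and from -0.51 to -0.19 for SIX2 when an array was left out. Of 231 alternative values of the untested PAX8, EYA1 and RET probe sets, 22 moved by more than the spread between replicates. This measure does not count changes of sign, and some signs did turn when an array was left out. The SET8 difference of EYA1 went from 0.08 to as low as -0.30. The Wnt3a difference of RET NM_020630 went from 0.54 to as low as -0.13. An offset of 50 before log2 gave 0.34 for PAX8 NM_003466 with Wnt3a medium, and 0.93 for RET BC004257 with SET8 shRNA. These probe sets lay mostly below the array medians, and RET NM_020975 was nearest to the random control set.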
